A study of Homo sapiens with 2 samples.

Results

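The genes of the G1/S transition and of DNA replication were examined in KYSE150 cells after knockdown of the long non-coding RNA lncRNA625. The set was given as 39 gene symbols of known role, chosen with earlier results of these data known, so its counts are descriptions only. A symbol was kept where a row of the array carried it alone. This held for 38 of the 39 symbols, out of the 22465 genes that the whole table measures singly. RRM1, the large subunit of ribonucleotide reductase, shared its row with a non-coding RNA and was left out, since a signal of that row cannot be given to either gene. KYSE150 is an established human cell line derived from an esophageal squamous carcinoma. Both groups grew in RPMI-1640 medium with serum, and the control cells stably carried shscramble, a scrambled short hairpin RNA, while the knockdown cells stably carried shlncRNA625, a hairpin against lncRNA625 brought in by a lentiviral vector. Each group was 1 hybridization to the Affymetrix Human Transcriptome Array 2.0, so no test could be made, no value has an error, and 1 hairpin stands for the knockdown. The signal of lncRNA625 itself was not analysed here, and the loss of its RNA was not checked. Differences are given as knockdown minus control on the log2 scale of the deposited values.

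At the G1/S transition, cyclin-dependent kinases with their D and E cyclins phosphorylate the retinoblastoma protein RB1, which frees the E2F transcription factors to raise the genes of S phase. Replication origins are loaded during G1 by the origin recognition complex, CDC6 and CDT1, which place the MCM2 to MCM7 helicase on DNA, and the helicase is then switched on by CDC45, the GINS complex and MCM10. Most of these genes are transcribed mainly in cycling cells and are much used as markers of proliferation in tumors, squamous carcinomas included. A bulk RNA signal does not tell fewer cells in S phase from less RNA of these genes in each cell.

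None of the 38 genes was higher on the knockdown array, 15 were lower and 23 had exactly the same value on both arrays. All 38 passed the signal limit, which asked for a mean of both arrays of at least 4.97, the median of rows with 1 gene symbol. Among all 11323 genes past this limit, 12.1% were lower, 11.8% were higher and 76.0% were equal, so that the share of lower genes in the set, 39.5%, lay above the background and the share of higher ones, 0%, below it. Differences beyond 0.1 were found in 12 of the 38 genes, all of them lower, where 6.62% of all genes were lower and 6.76% higher by that much. Beyond a limit of 1.5-fold, 1 gene of the set was lower and 0 were higher, beside 0.477% lower and 1.11% higher of all genes. The median difference was 0 in the set as in all genes, and the mean was -0.091 against 0.0053. Equal values were the rule over the whole table, also for strong rows, and a value of 0 therefore does not show an absence of change. When the arrays were scaled in 3 other ways, most equal genes took small differences below 0.1, and the counts beyond 0.1 stayed at 12 lower and 0 higher.

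**Figure D1:**
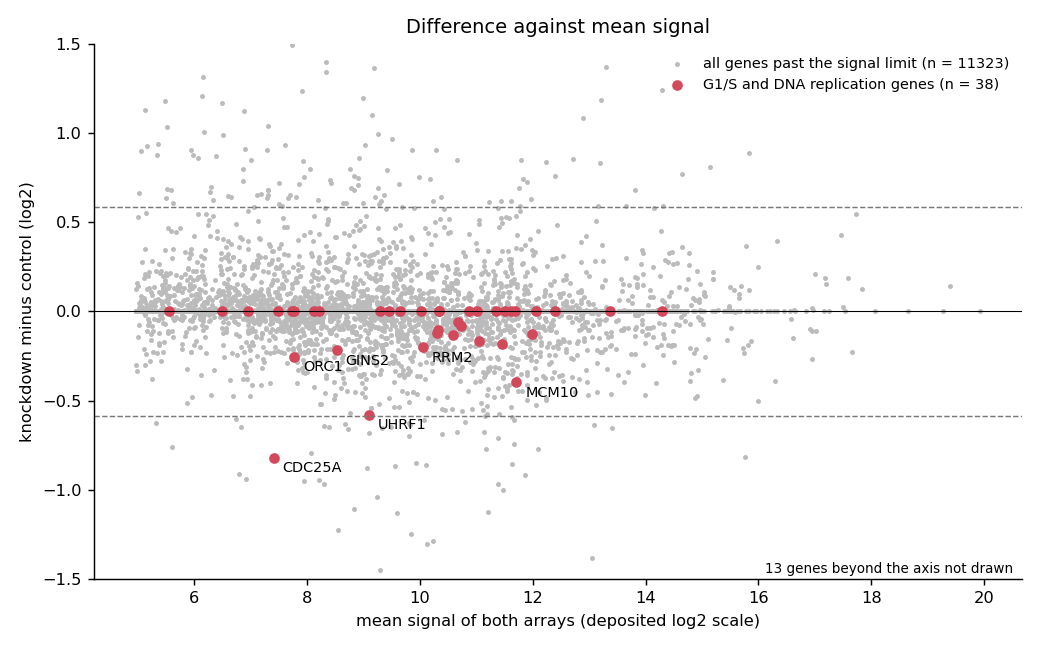
Each point is a gene past the signal limit, with the mean signal of both arrays on the deposited log2 scale on the x axis and knockdown minus control on the y axis; the 38 genes of the set are red, 11323 genes are grey, dashed lines mark 1.5-fold, and 13 genes beyond 1.5 on the y axis are not drawn. No red point lies above 0, and CDC25A is the only one below the lower dashed line.

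The share of lower genes depended on signal, and the genes of the set were mostly strong. When the genes past the limit were divided into 4 equal bins of mean signal, 24 of the 38 fell in the strongest bin, 9 in the next, 4 in the one below and 1 in the weakest. In the strongest bin 11 of 24 genes of the set were lower, 45.8%, beside 25.8% of all genes there and 27.7% of protein-coding ones. In the next bin the shares were 33.3% in the set and 13.7% over all genes, with 3 of 9 lower. In the bin below 1 of 4 was lower, beside 5.85% of all genes, and the 1 gene in the weakest bin was equal. No gene of the set was higher in any bin, where 7.24% to 18.1% of all genes were. The set thus held a larger share of lower genes than all genes of like signal in 3 of the 4 bins, as counts on these 2 arrays with no test behind them.

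CDC25A, a phosphatase that removes inhibitory phosphates from CDK2 and so drives entry into S phase, differed most. Its signal was 7.82 in control cells and 6.999 in knockdown cells, a difference of -0.82 or 1.77-fold on the deposited scale, which ranked 24 from the lowest of 11323 genes. UHRF1, which binds hemimethylated DNA behind the fork and brings in the maintenance methyltransferase, followed with 9.38 and 8.80. Its difference of -0.58 lay just inside the 1.5-fold limit of 0.585 and ranked 55. MCM10, which takes part in activating the loaded helicase, had 11.91 in control cells and 11.51 in knockdown cells, a difference of -0.40 that ranked 135. These 3 genes have different roles, in cell cycle control, chromatin and helicase activation, and they were the only ones of the set with a difference beyond 0.3.

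The promoters of these 3 genes are shown because many S phase genes are known targets of E2F factors, and the letters just before the transcription start let the motif be seen. Each run holds the 120 bases before an annotated start, from the RefSeq annotation of GRCh38.p14, in the direction of transcription, with a match to the E2F motif in capitals. The motif was searched as TTTCCCGC or TTTGGCGC on both strands. CDC25A at chr3:48188418-48188537, minus strand, held a match starting 44 bases before the start, and UHRF1 at chr19:4909381-4909500, plus strand, held one on the other strand starting 14 bases before the start. The UHRF1 window is 1 of 3 that the annotation gives for this gene, and the other two held no match. MCM10 at chr10:13161438-13161557, plus strand, had no match and is printed for contrast, a choice made after its values were seen.
CDC25A: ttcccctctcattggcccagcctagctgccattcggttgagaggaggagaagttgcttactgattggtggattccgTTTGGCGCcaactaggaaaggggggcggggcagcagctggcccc
UHRF1: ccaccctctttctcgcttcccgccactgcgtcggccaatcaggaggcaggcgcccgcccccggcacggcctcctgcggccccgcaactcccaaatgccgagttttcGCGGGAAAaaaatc
MCM10: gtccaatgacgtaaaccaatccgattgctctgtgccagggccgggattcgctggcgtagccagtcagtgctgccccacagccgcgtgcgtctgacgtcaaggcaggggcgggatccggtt

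Promoter windows, reaching from 250 bases before to 50 bases after a start, were found for 34 of the 39 symbols. RRM1 was among the 34, and without a row of its own it counted neither as lower nor as equal. The motif was held by 17 of these 34 genes, 50%, and by 17 of their 44 windows, 38.6%. Over the whole table of 35116 windows the share was 2.27%, over its 27305 genes 2.75%, and over the 8406 of them past the signal limit 4.81%. The E2F motif was therefore more frequent among these genes than over the whole table. The selection did not use the motif by letter, although the genes were chosen for a phase of the cycle rich in known E2F targets. The share was close in lower and in equal genes, 53.8% and 50%. The motif was held by 7 of the 13 lower genes with a window, CDC25A, UHRF1, GINS2, RFC3, GMNN, CDC6 and POLA1, and by 10 of the 20 equal ones, among them E2F1, CDT1, MCM6 and TYMS. Of the 18 matches, 10 began within the 60 bases before the start. A match is a stretch of letters and not a measured site.

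**Figure D2:**
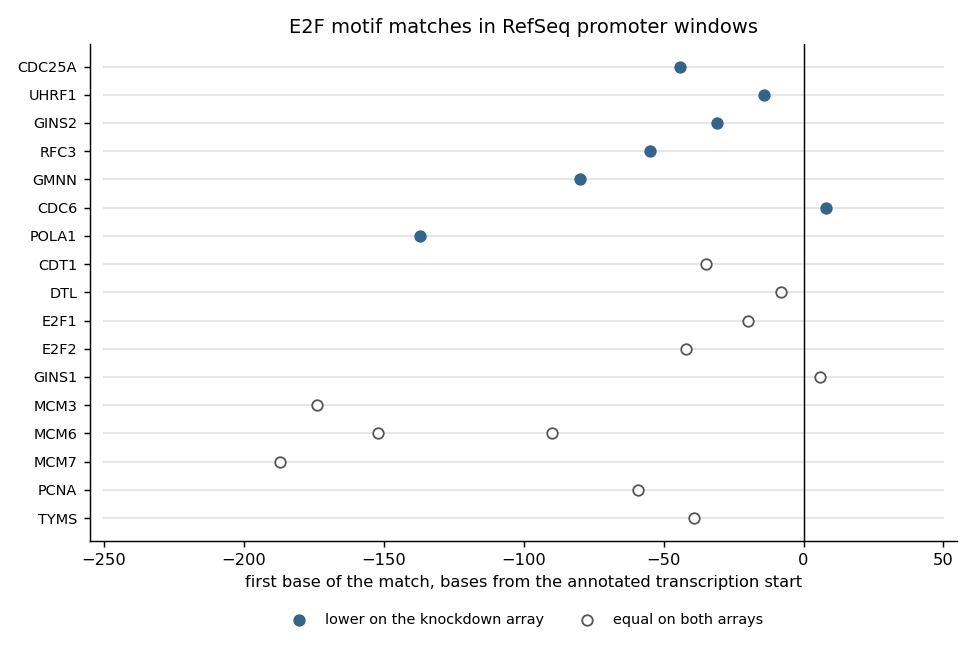
Each point is a match to the E2F motif in a RefSeq promoter window of a gene of the set, with the distance of its first base from the annotated transcription start on the x axis, in bases, and genes in order of their difference from the top; filled points are genes lower on the knockdown array and open points are genes equal on both arrays. Matches of both kinds gather in the bases just before the start, and MCM6 has 2.

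Among the cyclins, kinases, RB1 and E2F factors, 2 of 10 genes were lower and 8 were equal. Of all genes past the limit, 12.1% were lower. Beside CDC25A, CCND1, the D cyclin that answers to growth signals, had 11.13 in control cells and 10.96 in knockdown cells, a difference of -0.17. Both E cyclins, which act with CDK2 at the start of S phase, were equal, with CCNE1 at 6.50 and CCNE2 at 7.77. The kinases of this step were equal too, with CDK2 at 11.51, CDK4 at 13.38 and CDK6 at 9.65. RB1, which holds E2F in check, was at 11.62 on both arrays. Of the activating E2F factors, E2F1 was at 7.48 and E2F2 at 5.55 on both arrays, and the value of E2F2 was below the highest of 23 rows of background probes, 6.003. Of these 10 genes only CDC25A and CCND1 thus differed between the arrays, with the limit on equal values given above.

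**Figure D3:**
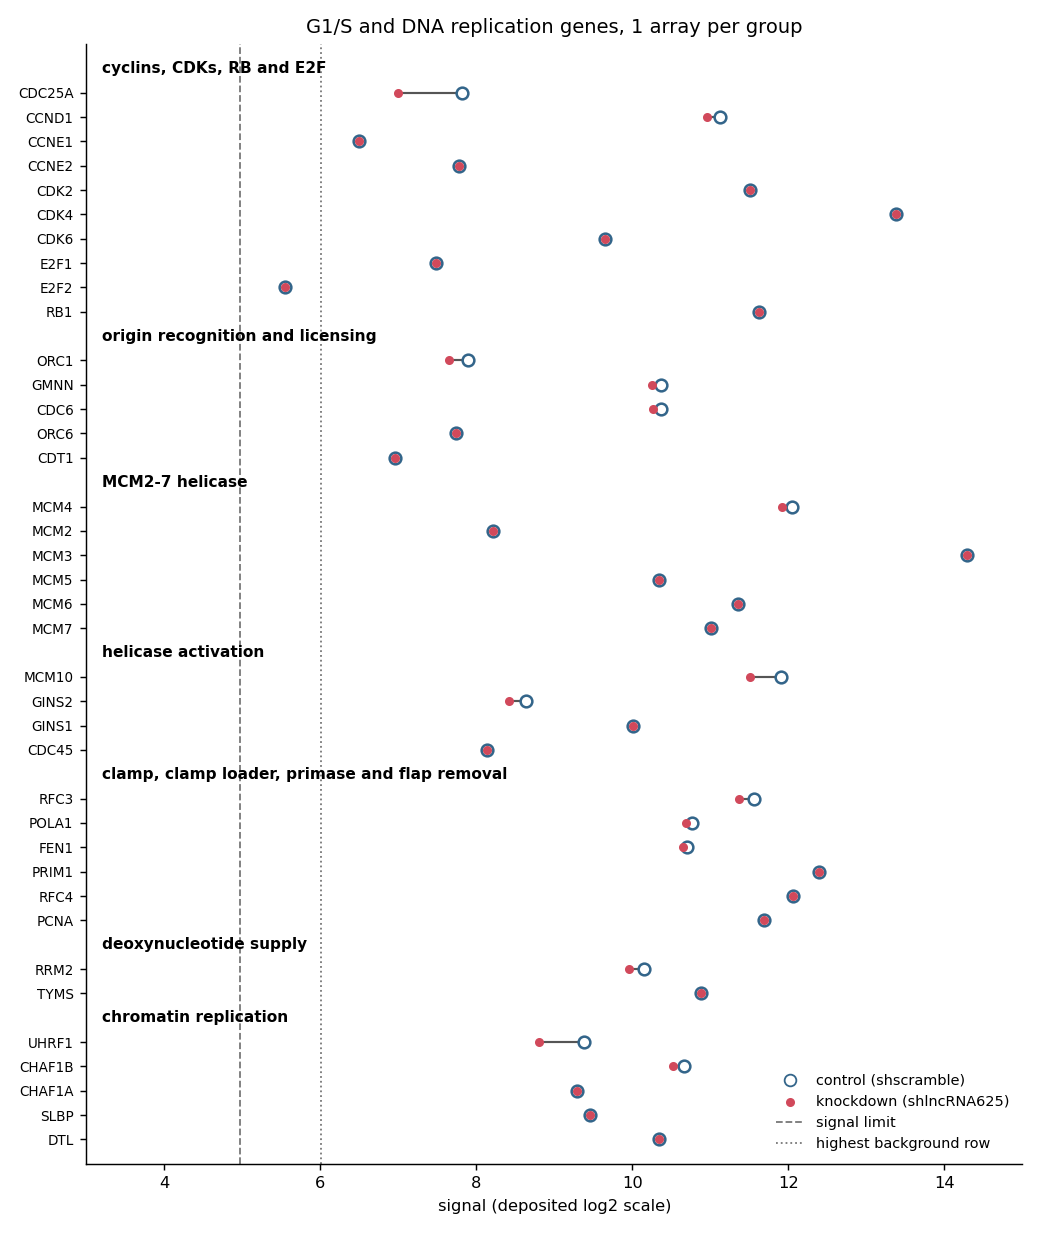
Signal on the deposited log2 scale on the x axis for the 38 genes, grouped by role, with an open blue circle for the control array and a red point for the knockdown array, 1 array each; the dashed line is the signal limit of 4.97 and the dotted line the highest background probe row, 6.003. The red point lies left of the circle by most in CDC25A, UHRF1 and MCM10, and it lies inside the circle in PRIM1 and in the 23 equal genes.

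Of the genes that recognize and license origins, 3 of 5 were lower, beside 12.1% of all genes past the limit. ORC1, the largest subunit of the origin recognition complex, had 7.90 in control cells and 7.65 in knockdown cells, a difference of -0.25. GMNN, which encodes geminin, the inhibitor of CDT1 that blocks a further round of licensing, had 10.37 and 10.25, a difference of -0.12. CDC6, the ATPase that helps load the helicase, had 10.37 and 10.26, a difference of -0.10. GMNN and CDC6 lay in the strongest bin of signal, where 25.8% of all genes were lower. ORC1 lay in the next bin, where 13.7% were. The loader CDT1 and the complex subunit ORC6 were equal at 6.96 and 7.73. A loading factor and the inhibitor of its partner were thus lower side by side, by similar small amounts.

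The 6 subunits of the MCM2 to MCM7 ring, which unwinds DNA ahead of the fork, were equal but for one. MCM4 had 12.05 in control cells and 11.92 in knockdown cells, a difference of -0.13. The other 5 subunits, MCM2, MCM3, MCM5, MCM6 and MCM7, were equal on both arrays, with levels from 8.21 to 14.29. The ring holds its subunits in equal number, and the arrays showed a difference in the RNA of 1 of them only, on a table in which equal values were frequent.

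Among the factors that activate the loaded ring, GINS2, a subunit of the GINS complex, had 8.63 in control cells and 8.42 in knockdown cells, a difference of -0.22. MCM10 was lower as given above. GINS1, a further subunit of the same complex, and CDC45, its partner in the active helicase, were equal at 10.01 and 8.13. Of the 2 GINS subunits in the set, 1 was therefore lower and 1 equal. The further subunits GINS3 and GINS4, outside the set, were equal on both arrays at 6.61 and 6.64.

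At the fork itself 4 of 6 genes were lower, but only RFC3 by more than 0.1. All 6 had a mean of at least 10.67, and of all genes with a mean of at least 10, 27.0% were lower. RFC3, a subunit of the clamp loader, had 11.55 in control cells and 11.37 in knockdown cells, a difference of -0.18, while RFC4 of the same loader was equal at 12.06. PCNA, the sliding clamp that the loader places on DNA, was equal at 11.68. POLA1, the catalytic subunit of polymerase alpha, had 10.77 and 10.69, a difference of -0.080. FEN1, the nuclease that trims Okazaki fragments, had 10.70 and 10.64, a difference of -0.059. PRIM1, the catalytic subunit of primase, was counted as lower with a difference of -0.00061, below any limit used here, and both values rounded to 12.39.

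Of the genes that supply deoxynucleotides, RRM2, the small subunit of ribonucleotide reductase that limits its activity in S phase, had 10.15 in control cells and 9.95 in knockdown cells, a difference of -0.20. TYMS, thymidylate synthase, was equal at 10.88. In the chromatin replication group of the set, CHAF1B, a subunit of the histone chaperone CAF-1, had 10.66 and 10.53, a difference of -0.13. Its partner CHAF1A was equal at 9.29. SLBP, which binds the stem-loop of replication-dependent histone messengers, and DTL, the substrate receptor of the ubiquitin ligase that destroys CDT1 in S phase, were equal at 9.46 and 10.34. UHRF1 was the other lower gene of this group. Among the 15 lower genes the differences ran from -0.00061 to -0.82 with a median of -0.17, and the 1374 lower genes of the whole table had a median of -0.11.

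Further genes of the same processes, 111 in 6 lists, were read beside the set, and 107 of them had a single-gene row. Of the 105 past the limit, 26 were lower, 3 higher and 76 equal, 24.8% lower and 2.86% higher, and 0 differed by more than 1.5-fold in either direction. The mean was -0.027 and the median 0. The lower share lay between that of the set and the 12.1% of all genes past the limit. The genes of the 6 lists had a median level of 9.13, above the 7.64 of all genes past the limit, and the lower share rose with signal. With the filter raised to the 75th percentile, a mean of at least 7.60, 19.6% of all genes were lower. Beyond 0.1, 11 were lower and 2 higher, and the lower ones made 10.5% of these genes beside 31.6% of the set. Of all genes, 6.62% past the limit and 11.2% past the raised filter were lower by that much. The share of the 6 lists, taken at the main limit, thus lay between those of all genes at the main limit and at the raised filter. It was not taken at the raised filter.

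**Figure D4:**
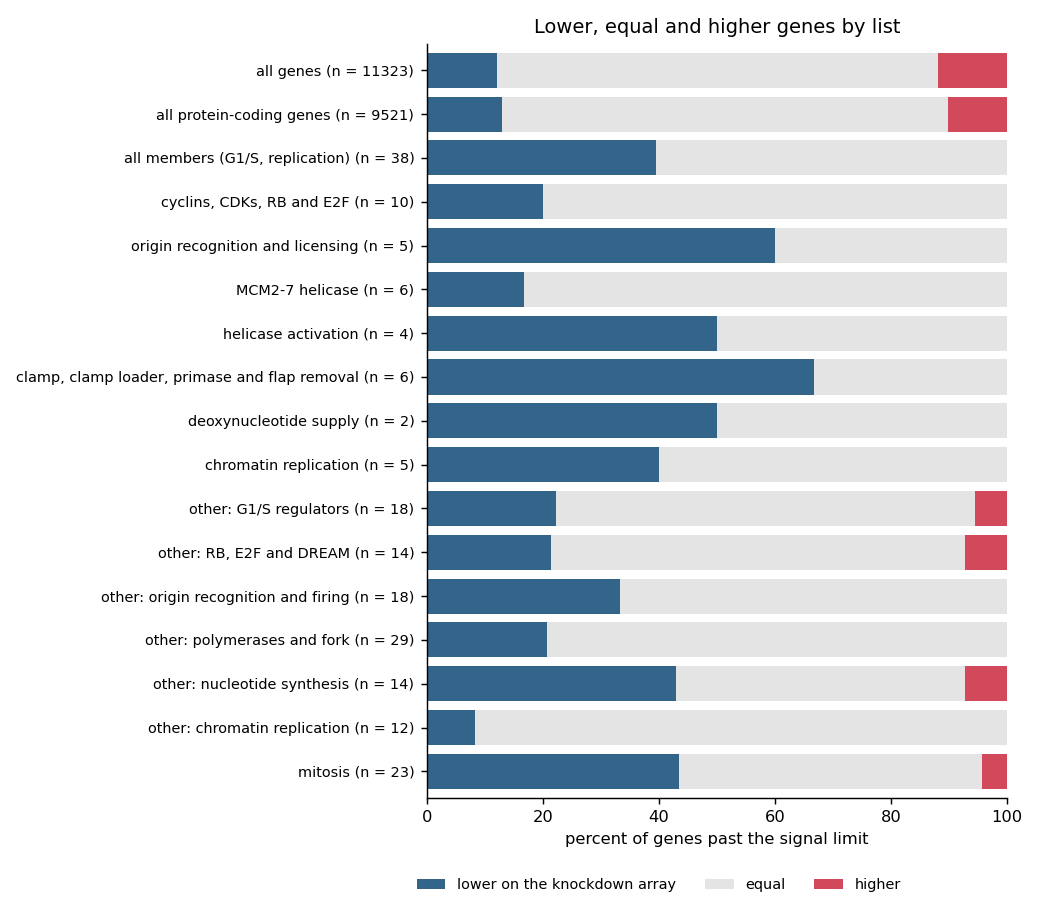
Percent of genes past the signal limit that were lower (blue), equal (grey) and higher (red) on the knockdown array, for all genes, protein-coding genes, the 38 genes of the set and its 7 groups by role, the 6 other lists of the pathway and the mitosis genes, with the number of genes in brackets. The bar of the set is blue over 39.5% and has no red, while the bar of all genes is blue over 12.1% and red over 11.8%.

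For the counts of the single lists, 12.1% of all genes past the limit and 19.6% past the raised filter were lower. Of the other G1/S regulators, 4 of 18 were lower and 1 was higher. CCND2, a D cyclin like CCND1, had 15.11 in control cells and 14.63 in knockdown cells, a difference of -0.49. SKP2, which marks the CDK inhibitor p27 for destruction, differed by -0.20, and the phosphatase CDC25B was the higher one, with 0.086. CKS1B, the cofactor of SKP2 in this step, differed by -0.076. The genes of the CDK inhibitors with a row past the limit were equal on both arrays. In the RB, E2F and DREAM list 3 of 14 were lower and 1 was higher. MYBL2, an activator of late cell cycle genes, differed by -0.30 and the repressor E2F7 by -0.27. RBL2, the p130 protein of the repressive DREAM complex that acts in resting cells, was higher, with 11.76 in control cells and 11.95 in knockdown cells, a difference of 0.20.

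In the origin recognition and firing list 6 of 18 were lower and 0 higher. Only TICRR was lower by more than 0.1, 5.56% of the list beside 6.62% of all genes past the limit. TICRR, which brings CDC45 to origins, differed by -0.29, while DBF4 and CDC7, the 2 subunits of the kinase that fires origins, differed by -0.057 and -0.040. Of the polymerase and fork genes, 6 of 29 were lower and 0 higher. CLSPN, the checkpoint mediator that travels with the fork, differed by -0.34, TOP1, the topoisomerase that relaxes DNA ahead of it, by -0.23, and POLD3, a subunit of polymerase delta, by -0.19. Of the nucleotide synthesis genes, 6 of 14 were lower and 1 was higher. CTPS1 and CAD, enzymes of pyrimidine synthesis, differed by -0.24 and -0.23. SAMHD1, which degrades deoxynucleotides, was higher, with 11.01 in control cells and 11.27 in knockdown cells, a difference of 0.25. In the chromatin replication list 1 of 12 was lower, the histone chaperone ASF1A with -0.038, and the other 11 were equal.

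Genes of mitosis, read for comparison, gave counts close to those of the set. Of 23 mitosis genes past the limit, 10 were lower, 1 was higher and 12 were equal, with a mean of -0.084. The lower share was 43.5%, beside 39.5% of the set and 12.1% of all genes. By more than 0.1, 7 were lower, 30.4% beside 31.6% of the set. The list had a median level of 11.76, and 27.0% of all genes with a mean of at least 10 were lower. A larger share of lower genes was thus not particular to the set. CCNA2, the A cyclin that acts in S phase and in mitosis, differed by -0.46, and CDC20, the activator of the anaphase-promoting complex, by -0.45. The difference between the sets was not tested.

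Markers of the line and of other cell types were read beside these genes. Of 10 squamous markers, 7 had a row of their own and all 7 passed the limit. KRT5, a basal keratin, had 16.50 in control cells and 16.11 in knockdown cells, and SOX2, a factor of the squamous lineage, had 7.87 and 8.40. KRT14, the partner of KRT5, was at 5.63 on both arrays, also below that highest background row. Of 16 fibroblast, endothelial, leukocyte and columnar markers, 14 had a row, 0 reached the limit, and none differed between the arrays. Their levels ran from 3.50 to 4.68. The medians of all rows were 4.34 and 4.35.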

How the data were processed

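Total RNA of KYSE150 cells with shlncRNA625 or shscramble was labelled with biotin and hybridized to the Human Transcriptome Array 2.0, 1 array per group. A sample label names siRNA where the series and the methods name a stable hairpin, and labels and methods name different RNA kits. The deposited values are log2 signals made by the authors with RMA per the labels, and the sources used here give no version. RMA normalizes quantiles between arrays and summarises probes. Values reach 19.93, above the 16 that a 16-bit scanner allows, and the step behind this was not stated, so that folds hold on the deposited scale only.

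Rows with exactly 1 gene symbol (23781 of 70523) were named through the platform annotation and updated by gene ID to RefSeq for GRCh38.p14 (21497 matched). Each gene was its row with the highest mean, and each member had 1 row. Genes with a mean of at least 4.97 were kept. No test was made. The members and lists were chosen with earlier results of these data known. Named beyond the members were, in each list, the 2 to 4 genes with the largest absolute difference, and marker genes, with fewer where the rest were equal or of small difference. The promoter of MCM10 was printed beyond the rule. Alternatives were leaving out the filter, raising it to the 75th percentile, the limit asked of each array, the mean over rows, median centring, a second quantile normalization, loess with a span of 0.3, a 2-fold limit, a difference beyond 0.1 and a looser motif. The counts and scalings were tested on a copy of the control array with known shifts added. A rise of 1 on the log2 scale in 100 genes and a fall of 1 in 100 others were all found. Smaller shifts of single genes were not tested. Python 3.11.15, pandas 2.3.3, NumPy 2.4.6, statsmodels 0.14.6 and matplotlib 3.10.9 were used.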

Additional observations from a re-analysis of the deposited data

How the results depend on the processing

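The counts of 15 lower and 0 higher genes of the set stayed the same without the filter. They also held with the limit asked of each array and with the mean over all rows. Raising the filter to the 75th percentile gave 14 and 0, with 42.4% of the set lower beside 19.6% of all genes. The shares at the main limit were 39.5% and 12.1%, so the background rose more than the share of the set. The number lower by more than 0.1 was 12 under median centring, a second quantile normalization and loess as in the deposited values. None were higher by that much. Under these scalings this was 31.6% of the set, beside 6.93% to 7.41% of all genes. In the deposited values past the raised filter, 33.3% of the set and 11.2% of all genes were lower by more than 0.1. Centring and loess moved every gene that was equal below 0, so that all 38 genes of the set were then lower. Of all genes, 88.6% were lower under centring and 89.2% under loess. The second quantile normalization gave 30 lower and 7 higher in the set. The lower share of the set was then 78.9%, below the 83.7% of all genes, so its excess of lower genes did not hold there. The number lower by more than 1.5-fold, 1 in the deposited values, was 2 under each of the 3 scalings, since UHRF1 lay just inside the limit, and 0 at the 2-fold limit. It was also 0 under the filter raised to the 75th percentile, which leaves out CDC25A by its signal. The mean difference ran from -0.080 to -0.105. The looser motif was TTNNCGC, where N is any base, and it includes every match of the stricter ones. With it, 82.4% of the 34 symbols with a window held a match, beside 28.7% of all genes and 45.5% of genes past the signal limit. No paired analysis was possible because each group was 1 array. No replicate could be left out for the same reason, and precision is limited by having 1 array per group.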

Other observations

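Exact values were shared between genes as well as between arrays. Of the genes past the signal limit, 46.7% had a control value identical to that of at least 1 other gene, 56.7% of the genes equal on both arrays and 12.9% of the lower ones. In the G1/S and replication set, 8 of 38 genes shared their control value with another gene, and 7 of these 8 were equal on both arrays. CCNE1 had the same control value as 15 other genes, E2F2 as 6, MCM2 as 4 and CCNE2 as 3. Among genes of the set with a mean of at least 10, 12 of 23 were equal and 11 lower, beside 53.9% equal and 27.0% lower of all genes at that level.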
